A study of Tribolium castaneum with 2 samples.

Results

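Tyrosine 3-monooxygenase (tyrosine hydroxylase, TC002496), Dopa decarboxylase (TC013480) and laccase 2 (TC010489) are 3 of the 17070 reference genes measured in larvae of *T*. *castaneum*, the red flour beetle. They were chosen by the identifiers of their reference transcripts, together with the transcripts that Cufflinks assembled on the same strand and that share exonic bases with them. The files carry identifiers without names. The paper names TC002496 and already reports it as raised under hypoxia in the RNA-seq of this study. The names of the other members came with the choice of genes and could not be checked against the files.

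RNA was sequenced in 2 libraries, TC1 and TC2, from wild type last-instar larvae 20 days from oviposition. The study compared larvae after 12 h in a mixture of 2% O2, 18% CO2 and 80% N2 with larvae in normoxia, a design in which the effects of little oxygen, of much CO2 and of the reduced moving and feeding that the paper describes cannot be told apart. The sample labels carry the same text for both libraries. In the paper's usage TC1 is the control and TC2 comes from the larvae given the gas mixture, and because the labels do not give this, every value below stands under its library and every ratio compares 2 libraries, not conditions. Samples of each treatment were pooled for sequencing and there was 1 library of each, so no difference has a replicate check and no gene was tested here.

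The 3 enzymes act in one route. Tyrosine hydroxylase turns tyrosine into DOPA, the rate-limiting step of dopamine synthesis, and Dopa decarboxylase turns DOPA into dopamine. In the insect epidermis dopamine is joined to acetyl or beta-alanyl groups and secreted into the new cuticle, where laccase 2, a multicopper oxidase, oxidises these catechols to quinones that cross-link cuticle proteins, the hardening and darkening known as tanning. Neurons use the same synthesis enzymes to make dopamine as a transmitter. Tyrosine hydroxylase and laccase 2 both use molecular oxygen as a substrate. In *T*. *castaneum*, laccase 2 is known to be needed for tanning and to be spliced into isoforms A and B, and in *Drosophila* the tyrosine hydroxylase gene is spliced into epidermal and nervous system forms.

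By the positions of the files, tyrosine 3-monooxygenase lies on the minus strand of ChLG3 from 31909405 to 31930068, with 8 exons and a coding length of 1653 bases (551 codons) in a span of 20664 bases. Laccase 2 lies on the minus strand of the same linkage group from 19034919 to 19081870, with 8 exons and 2154 coding bases (718 codons). Its span of 46952 bases is mostly introns, and the intron after exon 1 alone has 29184 bases. Dopa decarboxylase is compact, on the minus strand of ChLG5 from 10883792 to 10887492, with 6 exons and 1428 coding bases (476 codons) in 3701 bases. The word coding is used because 97.9% of the 17071 reference transcripts have lengths that are multiples of 3, as do those of these genes. No source used here names the genome build. Exons are numbered from the 5′ end of the reference transcript.

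Values are FPKM, in which fragments are scaled to transcript length and to the size of the library, so levels of different genes are compared per length. Reference and assembled transcripts were added to give the level of a gene, and the range in parentheses combines the confidence intervals that Cufflinks gives for each transcript. The ranges reflect how well fragments were counted and divided among transcripts in 1 library and hold no spread between larvae. In RNA of whole larvae, a change in the number of epidermal or nerve cells and a change in RNA per cell cannot be told apart.

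Tyrosine 3-monooxygenase stood at 125 FPKM (117 to 134) in TC1 and 263 FPKM (249 to 276) in TC2, 2.09-fold apart. Dopa decarboxylase was at 129 FPKM (120 to 138) in TC1 and 108 FPKM (99.8 to 117) in TC2. Laccase 2 was at 49.1 FPKM (44.4 to 53.7) in TC1 and 65.3 FPKM (61.4 to 69.1) in TC2. The library TC2 thus held more tyrosine 3-monooxygenase and laccase 2 and less Dopa decarboxylase, and for each gene the intervals of the libraries did not overlap.

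**Figure D1:**
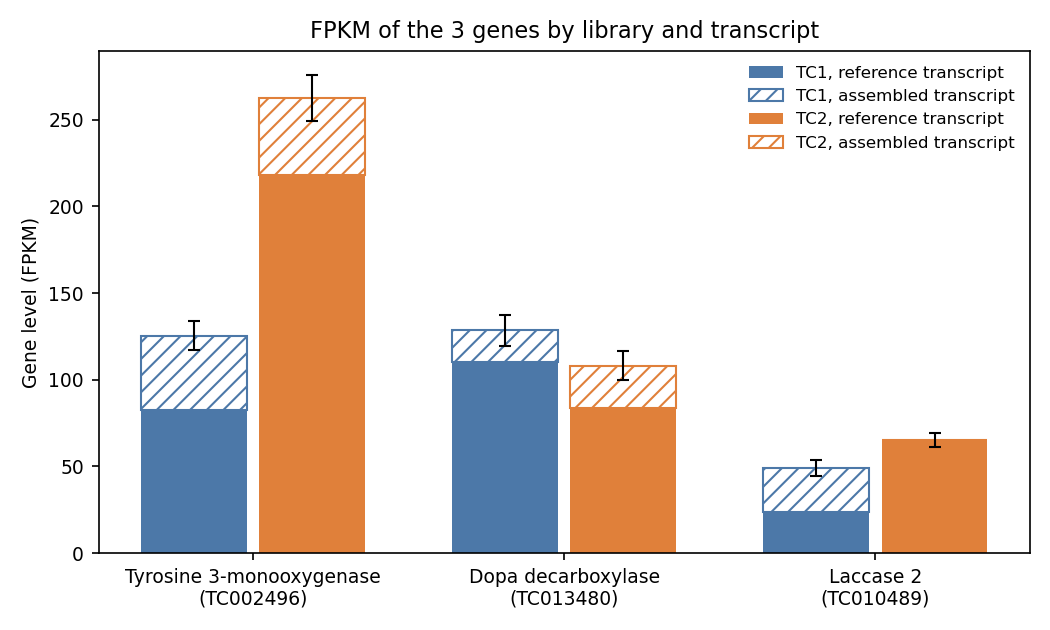
Level of each gene in FPKM (y axis, from 0) in library TC1 (blue) and TC2 (orange), with the part on the reference transcript filled and the part on the assembled transcript hatched; error bars are the combined Cufflinks interval of the sum, for 1 library each. Tyrosine 3-monooxygenase goes from 125 to 263 FPKM between the libraries, while Dopa decarboxylase and laccase 2 differ less, and laccase 2 in TC2 has no hatched part.

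The log2 ratio of TC2 over TC1, taken after adding 0.1 FPKM to both values, was 1.07 for tyrosine 3-monooxygenase, with a range of 0.94 to 1.19 that spans 2 standard errors on either side. It was 0.41 (0.25 to 0.57) for laccase 2 and -0.25 (-0.40 to -0.10) for Dopa decarboxylase. Tyrosine 3-monooxygenase alone of the 3 genes was at least 1.5-fold apart between the libraries with separate intervals. Among the 9731 genes whose mean over the libraries reached 1 FPKM, 19.6% were apart by that rule, 7.54% higher in TC2 and 12.1% lower. Separate intervals were common, at 33.4% of those genes whatever the fold. Laccase 2 was among the 6.05% that were higher in TC2 with separate intervals by less than 1.5-fold, and Dopa decarboxylase among the 7.72% that were lower in that way.

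The median log2 ratio of all 9731 genes was -0.10, and 94.5% of genes had a lower log2 ratio than tyrosine 3-monooxygenase. For laccase 2 this was 84.5% and for Dopa decarboxylase 37.4%. Relative to the median of all genes, the sum over transcripts of Dopa decarboxylase had a log2 ratio of -0.15, with a range that reached 0.0036, so its difference was then within 2 standard errors of 0. Its log2 ratio was -0.40 (-0.56 to -0.24) by the reference transcript alone and -0.38 (-0.53 to -0.23) with FPKM weighted by transcript length. Those 2 ratios were not centred on the median, but their ranges ended further below 0 than the median of -0.10. The sum counts in full a short assembled transcript of TC2 that covers 50.0% of the reference bases, which they leave out or weigh less. The levels of tyrosine 3-monooxygenase and laccase 2 remained higher in TC2 under each scaling that was tried. Each of those scalings raised the log2 ratios, so none could have reversed a gene already higher in TC2.

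**Figure D2:**
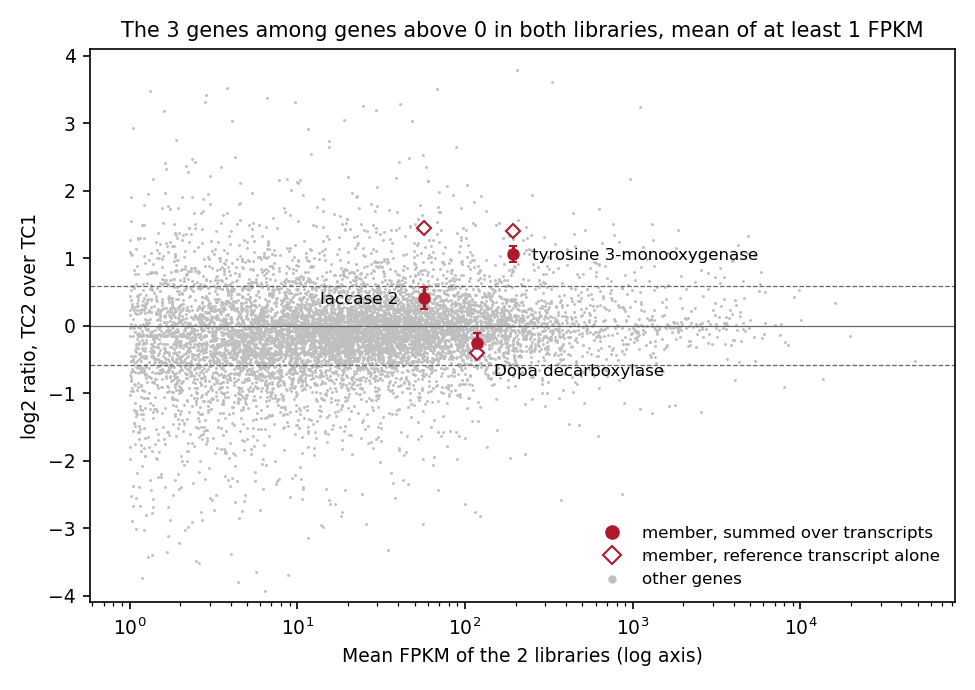
Log2 ratio of TC2 over TC1 (y axis) against the mean FPKM of the 2 libraries (x axis, log scale), with 1 grey point per gene and the 3 genes in red, filled for the sum over transcripts with bars of 2 standard errors and open for the reference transcript alone; dashed lines mark 1.5-fold. Drawn are 9117 genes, leaving out 597 listed at 0 in a library and 17 beyond a log2 ratio of 4, and the summed value of tyrosine 3-monooxygenase lies above the upper dashed line while those of laccase 2 and Dopa decarboxylase lie between the lines.

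By the Cufflinks intervals, the genes were set apart in order in TC2 and in part in TC1. These intervals hold no error from comparing genes of unlike length and sequence. In TC1, Dopa decarboxylase and tyrosine 3-monooxygenase had overlapping intervals, and the ratio of tyrosine 3-monooxygenase to Dopa decarboxylase was 0.975 (0.885 to 1.07). In TC2 the same ratio of FPKM was 2.43 (2.21 to 2.66). By the reference transcripts alone this ratio was 0.749 in TC1, where their intervals were separate, and 2.60 in TC2. Laccase 2 was the lowest of the 3 genes in both libraries, with separate intervals each time, at 0.381 (0.339 to 0.429) of the FPKM of Dopa decarboxylase in TC1 and 0.603 (0.547 to 0.665) in TC2. Among the 9731 genes, tyrosine 3-monooxygenase ranked 1284 by level in TC1 and 646 in TC2, Dopa decarboxylase ranked 1259 and 1430, and laccase 2 ranked 2753 and 2155.

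The assembly of each library gave further transcripts of these genes, and their structures differed between TC1 and TC2. Each library held 1 assembled transcript of tyrosine 3-monooxygenase and 1 of Dopa decarboxylase, and laccase 2 had 1 in TC1 and none in TC2. Of 5706 genes with 3 or more exons and a mean level of 5 FPKM or above, 52.9% had an assembled transcript in both libraries and 20.9% in 1 of them. None of the 4 introns that these assembled transcripts add to the reference was assembled in both libraries. Of the 7128 such introns over those 5706 genes, 52.5% were. The 4 introns are too few to set these genes apart from others. Those of Dopa decarboxylase share a border, and laccase 2 had no assembled transcript in TC2 that could hold its intron.

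**Figure D3:**
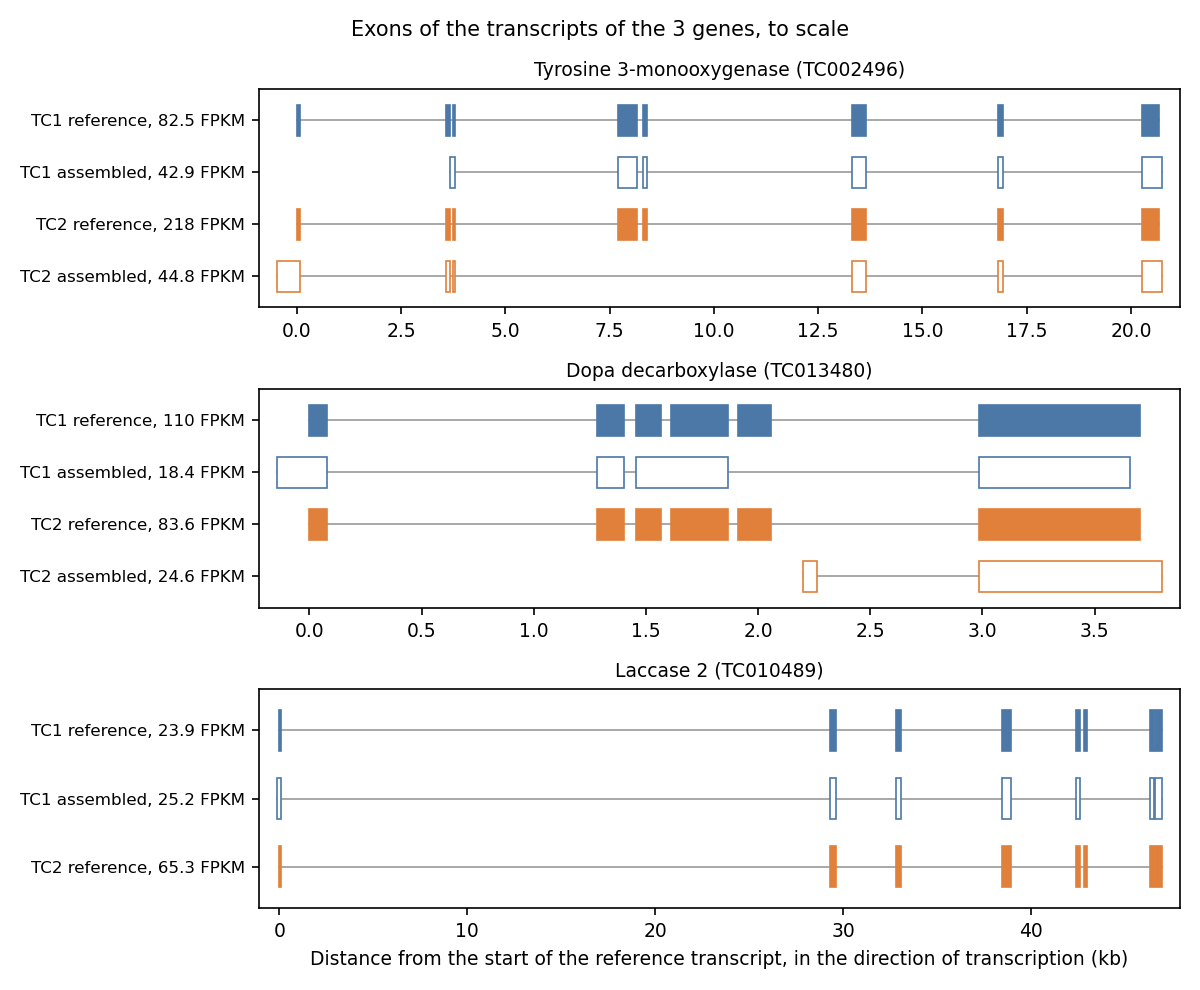
Exons (boxes) of each transcript of the 3 genes in library TC1 (blue) and TC2 (orange), filled for the reference transcript and open for the assembled transcript, against the distance in kb from the start of the reference transcript in the direction of transcription; the FPKM of each transcript stands beside it. The assembled transcript of laccase 2 in TC1 lacks exon 6, that of tyrosine 3-monooxygenase in TC2 lacks exons 4 and 5, and that of Dopa decarboxylase in TC2 holds the last exon and 1 further exon upstream of it.

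For laccase 2 the size of the difference depended on which transcripts were counted. In TC1 the reference transcript held 23.9 FPKM (20.7 to 27.1), or 48.6% of the gene, and an assembled transcript of 7 exons and 2064 bases held 25.2 FPKM (21.8 to 28.5), or 51.4%. The assembled transcript joins exon 5 to exon 7 over an intron of 3707 bases and skips exon 6, whose 196 bases are not a multiple of 3. It also begins 117 bases before the reference transcript and ends 11 bases short of it. Cufflinks marked the reference transcript as fully supported by reads in both libraries, and the assembled one as not.

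In TC2 all 65.3 FPKM of laccase 2 lay on the reference transcript. Taken alone, the reference transcript was 2.74-fold higher in TC2, a log2 ratio of 1.45 (1.24 to 1.66), which is past 1.5-fold, while the sum over transcripts was 1.33-fold higher and not past it. By the reference transcript alone, 13.7% of the 9731 genes were at least 1.5-fold higher in TC2 with separate intervals and 16% were lower. Such a gap between the log2 ratios of the sum and of the reference transcript is not particular to laccase 2. Of 6815 genes with a reference transcript above 0 in both libraries, the ratios differed by 0.3 or more in 31.03% and by 1 or more in 11.3%. The mean coverage that Cufflinks gives was 42.5 for the reference and 44.9 for the assembled transcript in TC1, and 129 for the reference transcript in TC2. Skipping of an internal exon was assembled in 11.1% of the 5706 genes in TC1 and in 10.4% in TC2. Without sequences, the assembled transcript could not be matched to isoform A or B.

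In tyrosine 3-monooxygenase the assembled transcript of TC1 lacked the 5′ exons and that of TC2 lacked internal exons. In TC1 the reference transcript held 82.5 FPKM (75.7 to 89.3) and an assembled transcript of 6 exons held 42.9 FPKM (37.9 to 47.9), or 34.2% of the gene. This transcript has no exons 1 and 2, and its 5′ exon is exon 3 extended by the whole intron before it, 57 bases, up to the border of exon 2. In TC2 the reference transcript held 218 FPKM (205 to 230) and an assembled transcript of 6 exons held 44.8 FPKM (39.9 to 49.6), or 17.0% of the gene. That transcript joins exon 3 to exon 6 over an intron of 9503 bases, leaving out exons 4 and 5 with 541 bases together, again not a multiple of 3. It begins 473 bases before the reference transcript and ends 72 bases beyond it.

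These assembled transcripts are unlike in structure and each was assembled in 1 library, so their levels were not compared. The reference transcript of tyrosine 3-monooxygenase alone was 2.64-fold higher in TC2, a log2 ratio of 1.40 (1.26 to 1.54). Summed over the transcripts that cover an exon, which restates the FPKM of the transcripts and is no count of reads per exon, the difference ranged from a log2 ratio of 0.80 at exons 4 and 5, with 125 FPKM in TC1 and 218 FPKM in TC2, to 1.67 at exons 1 and 2, with 82.5 and 263 FPKM. Cufflinks marked the reference transcript of this gene as not fully supported by reads in either library, despite mean coverages of 152 and 456, and marked the assembled transcript of TC2 as supported. Of the 5706 genes with 3 or more exons, 51.8% in TC1 and 54.4% in TC2 had a fully supported reference transcript. Since the transcripts of a gene share most of their bases, how the fragments were divided between them is an estimate of Cufflinks.

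**Figure D4:**
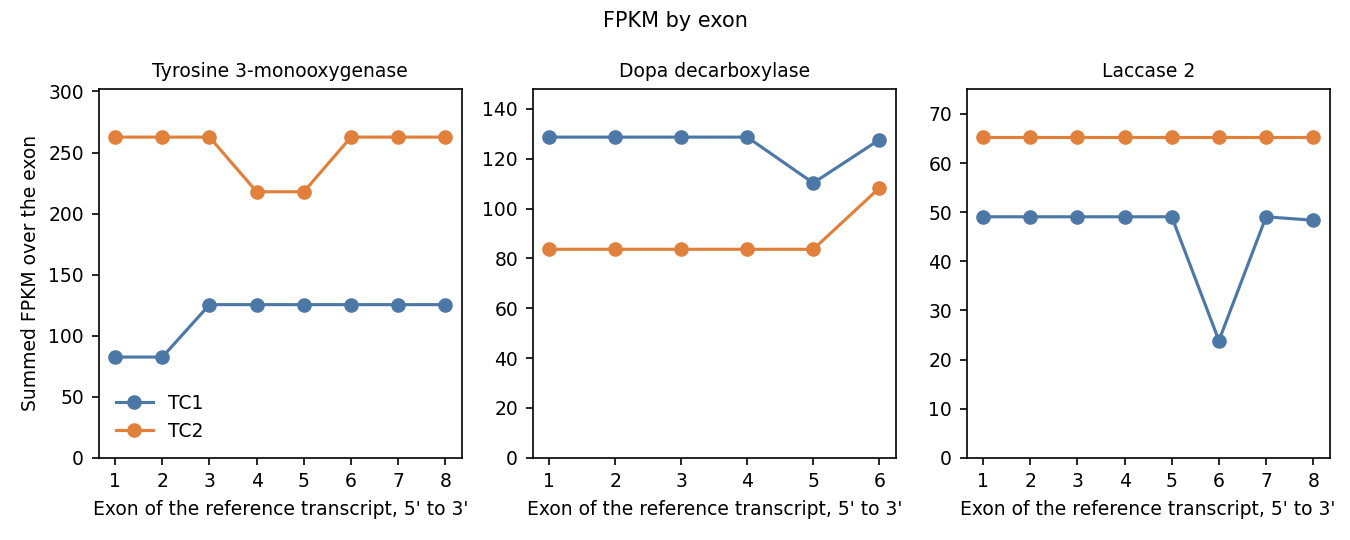
Summed FPKM of the transcripts that cover each exon of the reference transcript (y axis, from 0) by exon number from the 5′ end (x axis), for library TC1 (blue) and TC2 (orange), 1 library each; the sums restate transcript estimates and are not reads per exon. Exons 4 and 5 of tyrosine 3-monooxygenase drop to 218 FPKM in TC2, exon 6 of laccase 2 drops to 23.9 FPKM in TC1, and exons 1 to 4 of Dopa decarboxylase stand at 129 and 83.6 FPKM.

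For Dopa decarboxylase, each library had 1 assembled transcript, and the structures of both differed. The reference transcript held 110 FPKM (102 to 119) in TC1 and 83.6 FPKM (76.9 to 90.4) in TC2, 0.759-fold, and was marked as fully supported in both. In TC1 an assembled transcript of 4 exons held 18.4 FPKM (15.1 to 21.7), or 14.3% of the gene. It skips exon 5, of 149 bases, keeps the intron of 46 bases between exons 3 and 4, and begins 144 bases before the reference transcript. In TC2 the assembled transcript held 24.6 FPKM (19.5 to 29.7), or 22.7%. It consists of exon 6, extended by 100 bases, and an exon of its own in the intron before it, so it covers 50.0% of the reference bases and none of exons 1 to 5.

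Summed over each of exons 1 to 4, Dopa decarboxylase stood at 129 FPKM (120 to 138) in TC1 and 83.6 FPKM (76.9 to 90.4) in TC2, a log2 ratio of -0.62 that is past 1.5-fold. Over exon 6, where the 3′ transcript of TC2 adds its share, the values were 128 FPKM (119 to 136) and 108 FPKM (99.8 to 117), a log2 ratio of -0.24. These sums follow from how Cufflinks divided the gene into transcripts in each library, and they were looked at after the data were seen.

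The nearest genes on either side of each were read for comparison. Beside tyrosine 3-monooxygenase, a gene on the plus strand 19807 bases beyond its 5′ end stood at 23.4 FPKM (20.5 to 26.3) in TC1 and 41.1 FPKM (34.2 to 48.0) in TC2, a log2 ratio of 0.81, also past 1.5-fold with separate intervals. Most of that level lay on assembled transcripts. The reference transcript of that gene had upper limits of only 6.57 FPKM in TC1 and 0.146 FPKM in TC2. The gene on the other side of tyrosine 3-monooxygenase, 6654 bases away, was at 1.72 FPKM in TC1 and listed at 0 in TC2. The reference gene next to laccase 2, TC010490, lies 772 bases beyond its 3′ end on the same strand, with 3 exons and 795 bases. TC010490 was listed at 0 in TC1, with an upper limit of 0.403 FPKM, and at 9.20 FPKM (6.55 to 11.8) in TC2. In TC1 Cufflinks placed TC010490 in 1 locus with laccase 2, and in TC2 it did not, and a listed 0 can be a failed estimate. The FPKM of TC010490 were not added to laccase 2, and whether its exons belong to laccase 2 was not tested. The next gene on the other side of laccase 2 is 333694 bases away, at 230 FPKM in TC1 and 218 FPKM in TC2. Beyond the 5′ end of Dopa decarboxylase, a gene on the plus strand 1571 bases away was listed at 0 in both libraries. Its upper limits were 0.530 FPKM in TC1 and 0.475 FPKM in TC2. The 3′ end of Dopa decarboxylase faces a gene on the plus strand 181 bases away that was listed at 0 in TC1 and stood at 1.54 FPKM in TC2. The reference transcript of that gene had an upper limit of 0.159 FPKM in TC2, so most of that level was on assembled transcripts. Strand-specific counting is not stated in the sources used here, so reads of these facing genes may not be told apart by strand.

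The gene nearest to each by level, as the distance between the log2 values of both libraries, was TC012691 for tyrosine 3-monooxygenase, at 138 FPKM in TC1 and 255 FPKM in TC2 and a distance of 0.143. The nearest to Dopa decarboxylase was TC011619 at 130 and 108 FPKM and a distance of 0.0127, and the nearest to laccase 2 was TC000267 at 49.3 and 64.7 FPKM and a distance of 0.0137. Within a distance of 0.25 lay 11 genes for tyrosine 3-monooxygenase, 115 for Dopa decarboxylase and 104 for laccase 2. This likeness is over 2 libraries, and the files pair no name with these identifiers.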

How the data were processed

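Per the labels and the paper's methods, the authors made poly(A) libraries with an Illumina TruSeq kit, trimmed bases of low quality and compared the reads with the genome of BeetleBase. The deposited file of each library lists 17071 reference transcripts and those that Cufflinks assembled beside them, each with its FPKM, confidence interval and coverage. The paper's own test ran on counts over unigenes assembled with Trinity, which these FPKM do not hold. Aligner, versions and genome build: not given in the sources used here. Depth is given here as coverage per FPKM, 1.13 times higher in TC2. The paper also reports the reads of each group, more for hypoxia than for the control, and a higher GC content for hypoxia.

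Of 7674 assembled transcripts in TC1 and 7423 in TC2, 6986 and 6730 went to the reference gene that shared most exonic bases with them on their strand (on either strand where none was given). FPKM were summed per gene, and interval half-widths, taken as 2 standard errors, were added as squares. The pseudocount for log2 ratios was 0.1 FPKM, so changes of low genes are understated, and genes under a mean of 1 FPKM were left out. Named were the 3 genes, the nearest gene on either side of each and the 2 most like it in level, of which some are printed. The tanning pathway list was not run, since the reference table (assembly icTriCast1.1) pairs 0 of the 3 identifiers, and it holds no sequences. Alternatives were other pseudocounts, filters and scalings, a fold of 2, the reference transcript alone, stricter assignment, weighting by length and, added later, single exons. Members and lists were chosen with earlier results of these data known. The scripts were tested on simulated data. Python 3.11.15 was used (pandas 2.3.3, numpy 2.4.6).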

Additional observations from a re-analysis of the deposited data

How the results depend on the processing

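Some of the 10 alternatives tried for each gene had little or no room to change a sign. Pseudocounts of 0.01 and 1 FPKM are small beside these levels. Stricter assignment of assembled transcripts left all 3 values as they were, and the lowest exon of laccase 2 repeats its main value. Centring on the median took the range of Dopa decarboxylase to -0.30 to 0.0036, across 0. With these limits, the sign of the log2 ratio of each of the 3 genes was kept under all 10. By the reference transcript alone it moved out of its range for tyrosine 3-monooxygenase, to 1.40, and for laccase 2, to 1.45, where laccase 2 passed 1.5-fold. Over single exons, which were added once the data had been seen, it moved to 0.80 and 1.67 at the lowest and highest exons of tyrosine 3-monooxygenase, to 1.45 at exon 6 of laccase 2 and to -0.62 at exons 1 to 4 of Dopa decarboxylase. These alternatives use part of the transcripts by construction, and the exon values are sums of transcript FPKM, not reads per exon. The share of Dopa decarboxylase on the reference transcript in TC2 was 77.3%, and 84.7% when FPKM were weighted by transcript length, since the assembled transcript is short. With a fold of 2 in place of 1.5, 1156 genes and not 1907 were apart with separate intervals. No paired analysis was possible because there is 1 library of each kind. With no read counts per gene, the precision rests on the intervals of Cufflinks, 5.08 to 9.45% of the FPKM to either side for these genes, and these hold no spread between larvae.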
